A study of Lotus japonicus with 12 samples.

Results

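Among the transcripts of Lotus japonicus root nodules, 54 features that carry no ordinary gene name set the cpop1 mutant apart from wild type (WT) in every library: 40 were higher and 14 lower in cpop1. They were taken from the 8934 rows, of 29531 in the table, whose ID begins with BGI_novel (3548 rows) or ends in _LC (5386 rows). A feature was taken when it reached 1 FPKM (fragments per kilobase, relative to the total fragments of a library) in at least 3 libraries and the 6 cpop1 and 6 WT libraries did not overlap. The gap, which is the lowest library of the higher genotype minus the highest library of the lower genotype on the log2(FPKM + 1) scale, had to be 1 or more. The features were thus chosen by their FPKM in all 12 libraries, so the genotype difference is described below without a test.

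The data are 12 RNA sequencing libraries of root nodules, 3 each for WT and cpop1 plants at 10 and 21 days post inoculation (dpi), called young and mature nodules in the study's design. All plants were inoculated with Mesorhizobium loti strain MAFF 303099 in vermiculite. The mutant's genotype is labelled cpop1/hemf2; the sources used here give neither the kind of allele nor the number of independent lines. The labels do not say whether libraries came from separate plants or pots, so the spread between them may be technical. In bulk nodule RNA, fewer cells of a type and less RNA per cell cannot be told apart.

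Legume nodules house rhizobia that fix nitrogen, and heme is needed there for leghemoglobin, the plant protein that binds oxygen and protects the bacterial nitrogenase. The title names CPOP1 as an enzyme of heme synthesis, and hemF is the usual gene name of coproporphyrinogen oxidase, which acts late in that pathway. In the public annotation of the accession Gifu, the suffix _LC stands for gene models of low confidence, and the digit after LotjaGi for the chromosome. A BGI_novel ID (called a BGI feature below) stands, by its name, for a transcript outside the annotation; the sources used here define neither suffix nor prefix. Such features can be long noncoding RNAs, pieces of transposons, unannotated small proteins or unannotated ends of known genes, and these values do not tell these apart. A comparison of the 29531 IDs with RefSeq's table of L. japonicus genes (assembly LjGifu_v1.2, 40429 rows) gave 0 matches, so no member has a symbol or a role here, and neither the nodule markers nor the mutated gene were analysed here.

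Between 3856 and 4635 BGI and LC features per library reached 1 FPKM, with 3856 to 4171 in cpop1 and 4071 to 4635 in WT. The lowest WT value belonged to WT 10 dpi replicate 3, a library that resembles the young cpop1 libraries more than its own replicates. Across the 22249 tested features its mean correlation of log2(FPKM + 1) was 0.935 with the young cpop1 libraries and 0.843 with WT 10 dpi replicates 1 and 2, which correlated at 0.989 with each other; features are not independent replicates. It is kept under its label, and counts are also given without it. The read depth is unknown. All values are FPKM as deposited, and replicate values are given in the order 1, 2, 3.

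The 54 members were 0.998% of the 5413 BGI and LC features tested, 0.739% as higher in cpop1 and 0.259% as lower. Over all 22249 features tested the rule took 0.62%, 0.346% as higher and 0.274% as lower. BGI features made up 31 of the 40 higher and 10 of the 14 lower members, and LC features the remaining 9 and 4. Among 16836 annotated features, 37 (0.22%) were higher and 47 (0.279%) lower by the same rule. When any gap was accepted, the balance was the reverse: 183 BGI and LC features (3.38%) were higher and 411 (7.59%) lower in cpop1, against 3.94% and 6.86% of all features. Which direction was the larger also rested on WT 10 dpi replicate 3, since without it 133 BGI and LC features were higher and 250 lower in cpop1. The 54 members were all among these 383. The parting rule was not counted over all features without this library. Whether this turn goes beyond BGI and LC features is thus not known here.

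The 40 higher members stood mostly at low levels. Their medians over the 6 cpop1 libraries ran from 2.53 to 694 FPKM, and 26 of the 40 were below 10 FPKM. In 25 of them all 6 WT libraries lay below 1 FPKM, so these passed the minimum level through cpop1 alone. The 14 lower members included more abundant ones, with medians over the 6 WT libraries from 2.91 to 1597 FPKM and 5 above 100 FPKM, and 3 had all cpop1 libraries below 1 FPKM. Of the 37 annotated features higher in cpop1 by the same rule, 8 had all WT libraries below 1 FPKM. Of the 47 annotated lower ones, 5 had all cpop1 libraries below 1 FPKM. The mean difference between the genotypes had a median over the higher members of 2.51 at 10 dpi and 2.58 at 21 dpi on the log2(FPKM + 1) scale. Over the lower members it was -2.28 and -3.16. Over all tested features it was 0.023 and 0.048.

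**Figure D1:**
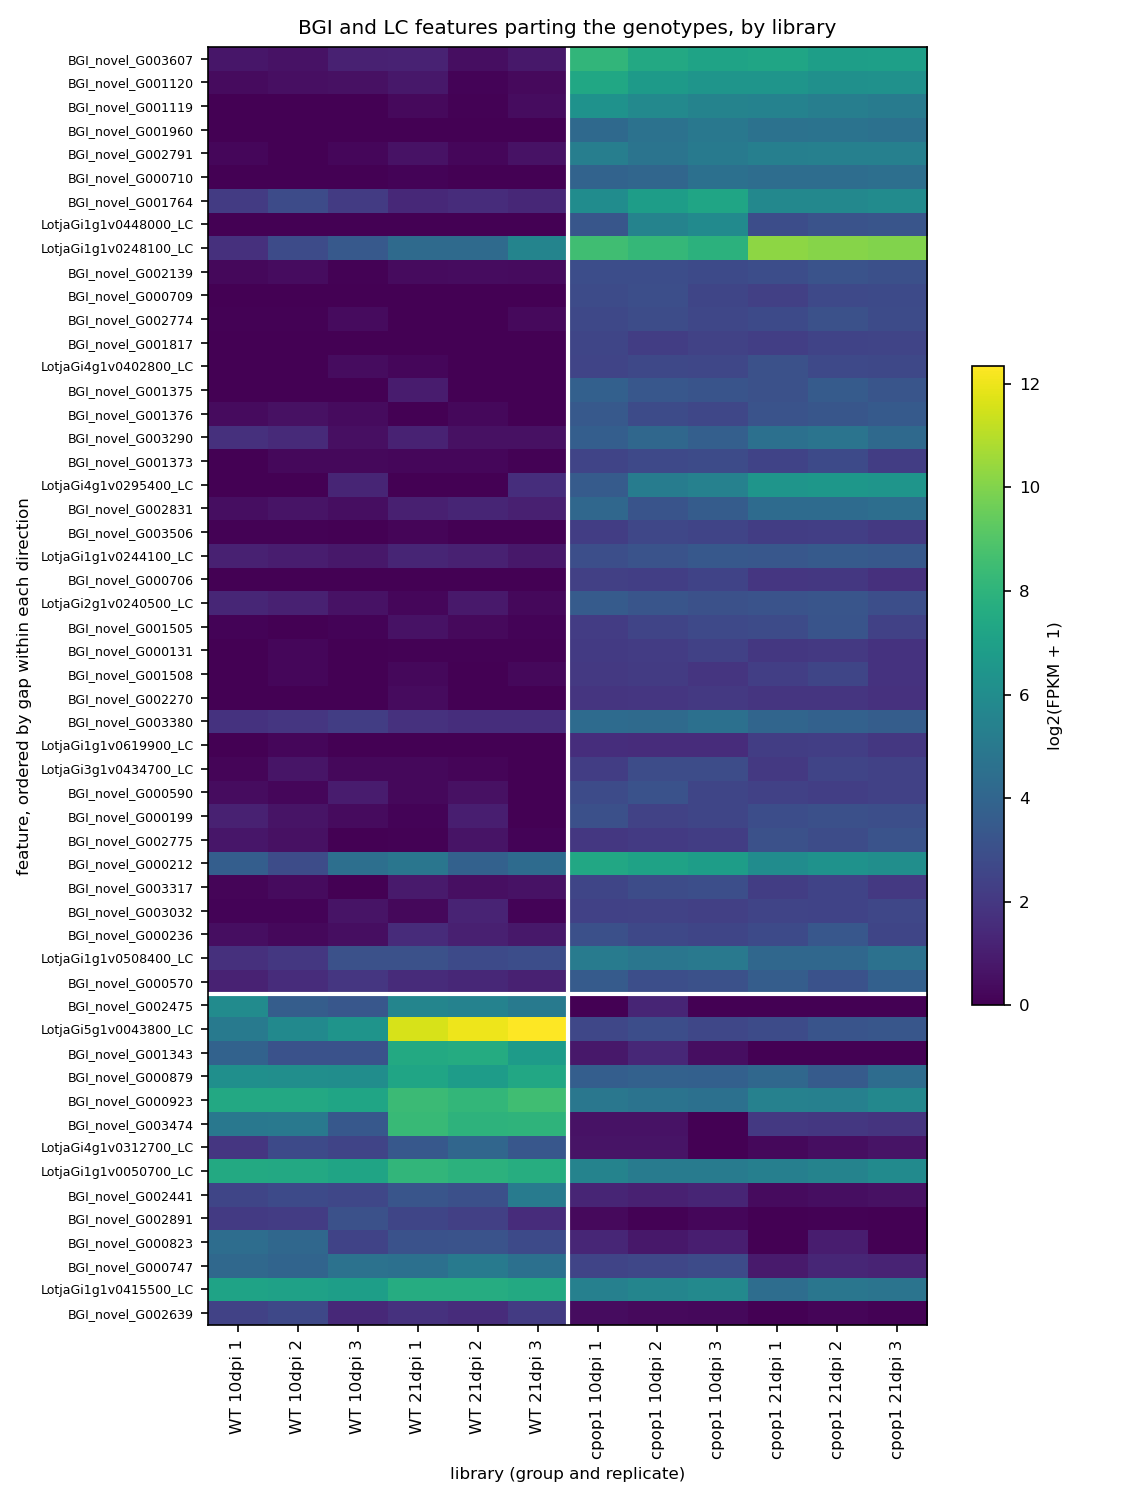
Level of each of the 54 features (rows, by gap within each direction) in each of the 12 libraries (columns), as log2(FPKM + 1) in colour. The upper 40 rows are brighter in all 6 cpop1 libraries and the lower 14 in all 6 WT libraries, as the selection required.

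BGI_novel_G003607 had the widest gap of all members, 5.71 on the log2 scale. It was at 0.69, 0.50 and 1.21 FPKM in WT at 10 dpi and at 1.29, 0.36 and 0.72 at 21 dpi. In cpop1 it was at 278, 175 and 142 FPKM at 10 dpi and at 149, 119 and 123 at 21 dpi. Every WT library was thus at 1.29 FPKM or less and every cpop1 library at 119 FPKM or more, and the mean difference was 6.75 at 10 dpi and 6.22 at 21 dpi on the log2 scale.

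BGI_novel_G001120 and BGI_novel_G001119 followed, with gaps of 5.40 and 4.72, and they carry consecutive numbers. BGI_novel_G001120 stood at 161, 106 and 86.5 FPKM in young and 86.2, 73.0 and 74.1 FPKM in mature cpop1 nodules, and at 0.08 to 0.75 FPKM in the 6 WT libraries. BGI_novel_G001119 stood at 77.0, 54.4 and 44.3 FPKM in young and 42.7, 38.1 and 33.6 FPKM in mature cpop1 nodules. It was listed at 0 in the 3 young WT libraries and at 0.24, 0.05 and 0.31 FPKM in the mature ones. In both features replicate 1 of the young cpop1 nodules was the highest library, and BGI_novel_G001120 stood at 1.92 to 2.2 times the level of BGI_novel_G001119 in the 6 cpop1 libraries.

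Some other features with wide gaps had signal in WT, while those nearly absent there follow below. BGI_novel_G002791 (gap 4.14) was between 25.6 and 40.5 FPKM in cpop1 and between 0 and 0.51 FPKM in WT. BGI_novel_G001764 (gap 2.91) was at 62.6, 114 and 152 FPKM in young and 52.8, 52.8 and 60.3 FPKM in mature cpop1 nodules. In WT it was at 3.35, 6.14 and 3.40 FPKM in young and 1.72, 1.98 and 1.61 FPKM in mature nodules, a low level that was lower still in the mature libraries. LotjaGi1g1v0248100_LC (gap 2.37) was the most abundant of the higher members. It was at 371, 298 and 245 FPKM in young and 1219, 1087 and 1017 FPKM in mature cpop1 nodules. In WT it was at 2.32, 6.15 and 9.77 FPKM in young and 18.2, 18.3 and 46.6 FPKM in mature nodules.

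On-off features, with all 6 libraries of the lower genotype at 0.1 FPKM or less, numbered 6 among the members, and all 6 were present in cpop1 and absent or nearly absent in WT. Among the 84 annotated features that met the parting rule, 0 were on-off in either direction, and among the members lower in cpop1 there were 0. The count changed when single libraries were left out, a comparison chosen after seeing the data. Without WT 10 dpi replicate 3, 9 BGI and LC features were on-off with cpop1 high and 19 with WT high, and 9 and 1 annotated ones. Without any other single library, 6 to 9 BGI and LC features were on-off with cpop1 high and 0 or 1 with WT high, so their one-sidedness depended on replicate 3.

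BGI_novel_G001960 was listed at 0 in all 6 WT libraries. In cpop1 it was at 17.6, 23.9 and 30.0 FPKM at 10 dpi and at 24.2, 25.0 and 23.0 at 21 dpi, so its level was alike at both ages. LotjaGi1g1v0448000_LC, also listed at 0 in all 6 WT libraries, varied more within cpop1, at 8.85, 45.2 and 59.6 FPKM in young and 6.47, 8.03 and 8.54 FPKM in mature nodules. BGI_novel_G000710 was at 14.1, 15.9 and 22.2 FPKM in young and 20.01, 20.2 and 21.8 FPKM in mature cpop1 nodules. It was listed at 0 in 4 WT libraries and reached 0.09 FPKM in mature WT replicate 1.

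The other 3 on-off features were less abundant. BGI_novel_G000709 lay between 4.02 and 6.69 FPKM in cpop1 and at no more than 0.03 FPKM in WT. BGI_novel_G001817 lay between 3.76 and 5.03 FPKM in cpop1 and at no more than 0.03 FPKM in WT. BGI_novel_G000706 lay between 2.25 and 4.62 FPKM in cpop1 and at no more than 0.01 FPKM in WT. The WT 10 dpi replicate 3 value was 0 for all 6 on-off features.

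**Figure D2:**
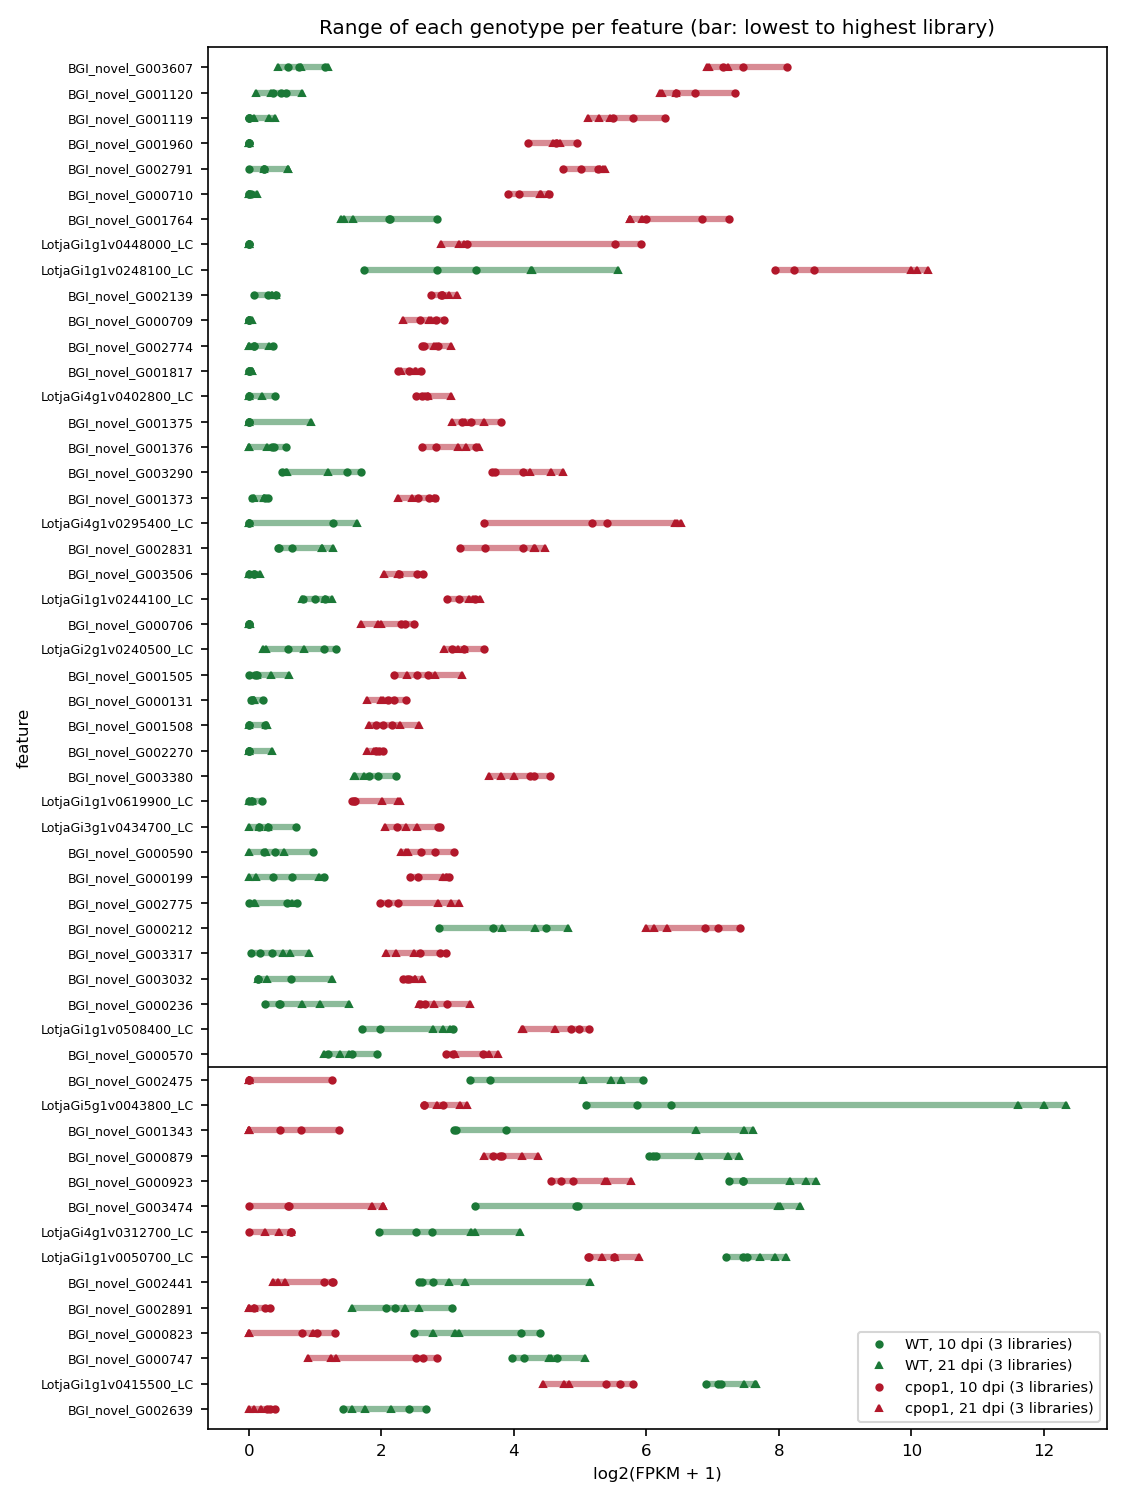
Every library of each feature (circles at 10 dpi, triangles at 21 dpi) on the log2(FPKM + 1) axis, with a bar from the lowest to the highest library of each genotype. The distance between the green (WT) and red (cpop1) bars is the gap, from 5.71 for BGI_novel_G003607 down to 1.04 among higher members and from 2.08 to 1.02 among lower ones.

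Neighbouring BGI numbers recurred among the higher members. Of the 31 higher BGI members, 12 lay in 5 runs whose numbers differed by 5 or less from the next, and 0 of the 10 lower BGI members did. Over the 41 BGI members, with numbers from 131 to 3607 in a table that runs from 1 to 3648, the median step from one to the next was 58. The sources used here do not say whether the numbers follow position in the genome, so neighbouring numbers may or may not be neighbouring loci, and no chance level was computed.

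The first run held BGI_novel_G000706, BGI_novel_G000709 and BGI_novel_G000710, all 3 of them on-off. The features numbered just outside did not share the pattern. BGI_novel_G000705 overlapped between the genotypes, at 5.47 to 10.7 FPKM in WT and 3.22 to 5.85 FPKM in cpop1. BGI_novel_G000711 was at 0.02 FPKM or less in all 12 libraries. The second run was the abundant pair BGI_novel_G001119 and BGI_novel_G001120 described above. BGI_novel_G001122, outside this run, was higher in WT, at 0.90 to 4.65 FPKM against 0 to 0.67 FPKM in cpop1, with a gap of 0.19. Its lowest WT library was 10 dpi replicate 3.

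In the third run, BGI_novel_G001373 (3.74 to 6.04 FPKM in cpop1, 0.03 to 0.22 FPKM in WT), BGI_novel_G001375 (7.37 to 12.9 and 0 to 0.92 FPKM) and BGI_novel_G001376 (5.14 to 10.2 and 0 to 0.48 FPKM) were members. BGI_novel_G001374, between them, also did not overlap, at 1.10 to 3.36 FPKM in cpop1 and 0 to 0.25 FPKM in WT, with a gap of 0.75. The numbers directly beside the run did not share the pattern. BGI_novel_G001372 overlapped, at 0.14 to 1.48 FPKM in WT and 0.45 to 1.59 FPKM in cpop1, and BGI_novel_G001377 was listed at 0 in all libraries but young cpop1 replicate 2, at 0.88 FPKM. The next numbers outward were higher in WT. BGI_novel_G001371 was at 4.34 to 36.5 FPKM in WT and 2.27 to 4.20 FPKM in cpop1, and BGI_novel_G001378 at 24.0 to 72.4 FPKM in WT and 10.5 to 21.9 FPKM in cpop1, with gaps of 0.038 and 0.12. In both, the lowest WT library was 10 dpi replicate 3.

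The fourth run was BGI_novel_G001505 (3.59 to 8.33 FPKM in cpop1, 0 to 0.53 FPKM in WT) with BGI_novel_G001508 (2.50 to 4.91 and 0 to 0.21 FPKM). Between them, BGI_novel_G001507 overlapped slightly, at 0.93 to 4.36 FPKM in cpop1 and 0 to 0.97 FPKM in WT. The fifth run was BGI_novel_G002774 (5.09 to 7.31 and 0 to 0.29 FPKM) with BGI_novel_G002775 (2.96 to 8 and 0 to 0.66 FPKM). BGI_novel_G002772, outside the run, was higher in cpop1 with a gap of 0.21.

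**Figure D3:**
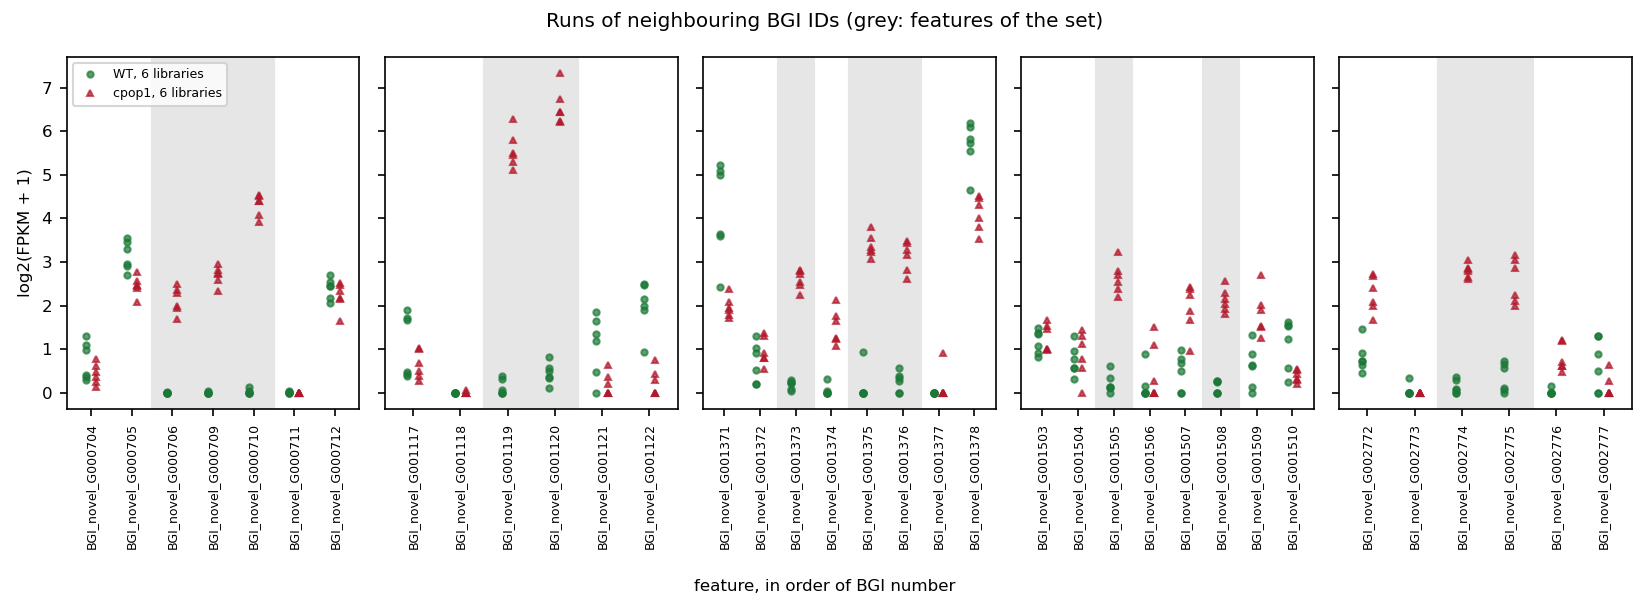
Level (log2(FPKM + 1), vertical axis) of the features in and beside the 5 runs of neighbouring BGI numbers, with 6 WT libraries (green circles) and 6 cpop1 libraries (red triangles) for each. Members are shaded grey, and in all 12 of them the cpop1 libraries lie above the WT libraries. BGI_novel_G001122 beside the second run and BGI_novel_G001371 and BGI_novel_G001378 beside the third run are higher in WT.

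Of the 13 LC members, 7 carried IDs of chromosome 1, where 28.6% of the tested LC features lie. The 13 were 0.529% of all 2456 tested LC features. By chromosome, members were 0.996% of the tested LC features of chromosome 1, 0.244% of chromosome 2, 0.234% of chromosome 3, 0.888% of chromosome 4 and 0.368% of chromosome 5, with 0 among 304 on chromosome 6. No position beyond the ID is given here, since the RefSeq table could not be matched.

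The 5 tested IDs on either side of each LC member, 130 in all, included 0 that met the parting rule. In 17 of them (13.1%) the genotypes did not overlap at any gap, 11 in the direction of the member and 6 in the other; the share over all tested features was 10.8%. LotjaGi1g1v0619900_LC was followed by the next 2 IDs in its own direction. It was at 1.93 to 3.87 FPKM in cpop1 and 0 to 0.15 FPKM in WT. LotjaGi1g1v0620000 was at 1.79 to 4.75 FPKM in cpop1 and 0.13 to 0.67 FPKM in WT, and LotjaGi1g1v0620100 at 111 to 271 FPKM in cpop1 and 13.9 to 62.7 FPKM in WT. Their gaps, 0.74 and 0.81, fell short of the limit.

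LotjaGi4g1v0402800_LC and the next ID, LotjaGi4g1v0402900_LC, went in opposite directions. The former, a member, was at 4.76, 5.45 and 5.12 FPKM in young and 7.27, 5.51 and 5.32 FPKM in mature cpop1 nodules, against 0 to 0.32 FPKM in WT. The latter, with a gap of 0.995 just short of the limit, was at 2.96, 2.95 and 5.69 FPKM in young and 2.13, 2.79 and 2.70 FPKM in mature WT nodules, against 0 to 0.57 FPKM in cpop1. Each was thus close to absent in the genotype where its neighbour was present.

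Of the remaining higher LC members, LotjaGi4g1v0295400_LC was at 10.8, 35.2 and 41.5 FPKM in young and 86.8, 91.3 and 85.1 FPKM in mature cpop1 nodules. It was listed at 0 in 4 WT libraries and at 1.40 and 2.09 FPKM in the third replicates of young and mature WT. LotjaGi1g1v0244100_LC lay at 6.93 to 10.2 FPKM in cpop1 and 0.75 to 1.39 FPKM in WT. LotjaGi2g1v0240500_LC lay at 6.73 to 10.7 FPKM in cpop1 and 0.16 to 1.48 FPKM in WT. LotjaGi3g1v0434700_LC lay at 3.15 to 6.38 FPKM in cpop1 and 0 to 0.63 FPKM in WT. LotjaGi1g1v0508400_LC lay at 16.4 to 34.0 FPKM in cpop1 and 2.27 to 7.44 FPKM in WT. These 4 had WT levels that were low but mostly above 0.

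The other 14 higher BGI members split by their WT level. BGI_novel_G002139, BGI_novel_G003506, BGI_novel_G000131, BGI_novel_G002270, BGI_novel_G000590 and BGI_novel_G003317 were below 1 FPKM in all WT libraries and between 2.44 and 7.81 FPKM in cpop1. The other 8 passed 1 FPKM in at least 1 WT library. BGI_novel_G000212 was the most abundant of them, at 170, 135 and 118 FPKM in young and 63.0, 78.1 and 68.5 FPKM in mature cpop1 nodules, and at 6.32 to 27.3 FPKM in WT. BGI_novel_G003290 was at 11.7 to 25.8 FPKM in cpop1 and 0.42 to 2.22 FPKM in WT. BGI_novel_G002831 was at 8.14 to 21.3 FPKM in cpop1 and 0.36 to 1.42 FPKM in WT. BGI_novel_G003380 was at 11.3 to 22.4 FPKM in cpop1 and 2.02 to 3.68 FPKM in WT. BGI_novel_G000199, BGI_novel_G003032, BGI_novel_G000236 and BGI_novel_G000570 had medians of 4.51 to 9.11 FPKM in cpop1, and none of them exceeded 2.83 FPKM in any WT library.

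The 14 lower members had narrower gaps, at most 2.08 against 5.71, and their WT libraries were more spread out. BGI_novel_G002475 had the widest. It was at 60.8, 11.5 and 9.12 FPKM in young and 48.3, 43.2 and 32.0 FPKM in mature WT nodules. It was listed at 0 in 5 cpop1 libraries and stood at 1.39 FPKM in young cpop1 replicate 2. In 8 of the 14 lower members the WT library nearest to cpop1 was 10 dpi replicate 3, so this library set the gap.

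LotjaGi5g1v0043800_LC (gap 1.80) was the most abundant member of either kind. It was at 33.0, 57.3 and 81.6 FPKM in young WT nodules and at 3113, 4105 and 5171 FPKM in mature ones. In cpop1 it stayed at 5.26, 6.61 and 5.25 FPKM in young and 6.14, 8.10 and 8.79 FPKM in mature nodules. Its mean difference between the genotypes was -3.03 at 10 dpi and -8.88 at 21 dpi on the log2 scale.

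BGI_novel_G001343 (gap 1.74) was at 13.8, 7.58 and 7.73 FPKM in young and 177, 194 and 107 FPKM in mature WT nodules. In cpop1 it was at 0.72, 1.57 and 0.39 FPKM in young nodules and listed at 0 in all 3 mature libraries. BGI_novel_G003474 (gap 1.38) was at 29.6, 30.4 and 9.61 FPKM in young and 319, 253 and 257 FPKM in mature WT nodules. In cpop1 it was at 0.50, 0.53 and 0 FPKM in young and 3.08, 3.06 and 2.61 FPKM in mature nodules. All 3 features were far higher in mature than in young WT nodules.

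A group of 4 lower members was abundant in both genotypes. BGI_novel_G000923 was at 151 to 375 FPKM in WT and 22.7 to 53.8 FPKM in cpop1. BGI_novel_G000879 was at 64.8 to 168 FPKM in WT and 10.7 to 19.7 FPKM in cpop1. LotjaGi1g1v0050700_LC was at 147 to 274 FPKM in WT and 33.7 to 58.4 FPKM in cpop1. LotjaGi1g1v0415500_LC was at 118 to 201 FPKM in WT and 20.6 to 54.8 FPKM in cpop1. None of these was near absence in any library.

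The other 6 lower members were scarcer. BGI_novel_G000747 was at 14.7 to 32.8 FPKM in WT and 0.86 to 6.14 FPKM in cpop1. BGI_novel_G000823 was at 20.1, 16.3 and 4.63 FPKM in young and 7.66, 7.98 and 5.86 FPKM in mature WT nodules, with replicate 3 of the young ones the lowest, and at 0 to 1.47 FPKM in cpop1. BGI_novel_G002441 was at 4.93 to 34.6 FPKM in WT and 0.29 to 1.42 FPKM in cpop1, its highest value coming from mature WT replicate 3 alone, with 8.61 and 7.12 FPKM in replicates 1 and 2. LotjaGi4g1v0312700_LC was at 2.90 to 16.1 FPKM in WT and 0 to 0.56 FPKM in cpop1. BGI_novel_G002891 was at 1.94 to 7.40 FPKM in WT and 0 to 0.25 FPKM in cpop1, and BGI_novel_G002639 at 1.68 to 5.36 and 0 to 0.32 FPKM.

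WT 10 dpi replicate 3 had to lie on the WT side by the rule, so its place over the members says nothing of its likeness to WT at large. On a scale where 0 is the mean of WT 10 dpi replicates 1 and 2 and 1 is the mean of the young cpop1 libraries, its median place was 0 over the higher members (range -0.48 to 0.39) and 0.10 over the lower members (range -0.48 to 0.55).

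At the limit of the rule, the members with the smallest gaps were BGI_novel_G002639 (1.02), BGI_novel_G000570 (1.04) and LotjaGi1g1v0508400_LC (1.04). The features just outside were LotjaGi4g1v0402900_LC (0.995), LotjaGi4g1v0357100_LC (0.95) and LotjaGi1g1v0291100_LC (0.92), all 3 lower in cpop1. LotjaGi4g1v0357100_LC was at 5.70 to 16.8 FPKM in WT and 1.83 to 2.46 FPKM in cpop1, and LotjaGi1g1v0291100_LC at 5.44 to 8.65 FPKM in WT and 1.94 to 2.41 FPKM in cpop1.

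Nodule age was not used to choose the features, so the change from 10 to 21 dpi was tested within each genotype with limma across all 22249 features (Benjamini-Hochberg adjusted p under 0.05). The rule bounds every library of a genotype and can favour features with a small spread within it, which bears on these tests too. In WT nodules, 11 members rose and 1 fell with age. Over all features 35.8% changed, 11.3% rising and 24.4% falling. Of the 14 members lower in cpop1, 8 rose with age in WT and 0 fell, while among the 40 higher members 3 rose and 1 fell. The median change in WT was 1.02 over the lower members, 0.0024 over the higher members and -0.23 over all tested features. In 25 of the 40 higher members every WT library was below 1 FPKM, near the floor of the log2(FPKM + 1) scale. An age change in WT could hardly show there, so these counts and medians do not compare the directions.

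LotjaGi5g1v0043800_LC rose by 6.21 ± 0.29 in WT (SE, log2 scale; limma adjusted p = 1.03e-06), the largest age change of any member. BGI_novel_G001343 rose by 3.91 ± 0.30 (limma adjusted p = 1.55e-05) and BGI_novel_G003474 by 3.67 ± 0.36 (limma adjusted p = 7.06e-05). In each of these 3, every mature WT library was above every young one. The other 5 lower members that rose in WT, LotjaGi4g1v0312700_LC, BGI_novel_G000879, BGI_novel_G000923, LotjaGi1g1v0415500_LC and LotjaGi1g1v0050700_LC, did so by 0.53 to 1.21. Among the higher members LotjaGi1g1v0248100_LC rose by 2.03 ± 0.43 (limma adjusted p = 0.00497), BGI_novel_G000236 by 0.74 and BGI_novel_G002831 by 0.64. BGI_novel_G001764 fell by 0.90 ± 0.29 (limma adjusted p = 0.0344), a call that was lost without WT 10 dpi replicate 2, without any 1 of the mature WT libraries, in a fit to WT alone and with libraries aligned at 1 median.

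In cpop1 nodules, 7 members rose and 9 fell with age, 29.6% of the 54. Over all features 29.5% changed, 8.03% rising and 21.5% falling. Of the 40 higher members 5 rose and 6 fell, and of the 14 lower members 2 rose and 3 fell. In 3 of the lower members every cpop1 library was below 1 FPKM, so an age change could hardly show there. BGI_novel_G001343, 1 of the lower members that fell, went from 0.72, 1.57 and 0.39 FPKM to a listed 0. Its call was near the floor of the scale and close to the limit (limma adjusted p = 0.048). LotjaGi1g1v0248100_LC rose by 1.88 ± 0.43 (limma adjusted p = 0.00863), a change near that in WT. LotjaGi4g1v0295400_LC rose by 1.76 ± 0.56 (limma adjusted p = 0.0386), a call that was lost without young cpop1 replicate 1 or 2 or any 1 of the mature cpop1 libraries, with a pseudocount of 0.5 or 0.1 and with no minimum level. BGI_novel_G003474 rose by 1.57 ± 0.36 (limma adjusted p = 0.00877), although it stayed at 3.08 FPKM or less.

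LotjaGi1g1v0448000_LC fell by 1.81 ± 0.52 on the log2 scale in cpop1 (limma adjusted p = 0.0244). Its young cpop1 libraries were far apart, with replicate 1 close to the mature ones, and the call was lost without young replicate 2 or 3 or any 1 of the mature libraries, in a fit to cpop1 alone and with libraries aligned at 1 median. BGI_novel_G000747 fell by 1.52 ± 0.22 (limma adjusted p = 0.000645), from 4.77, 5.18 and 6.14 FPKM to 0.86, 1.48 and 1.35 FPKM. LotjaGi1g1v0415500_LC fell by 0.92 ± 0.14 (limma adjusted p = 0.00105), from 41.0, 47.3 and 54.8 FPKM to 20.6, 27.6 and 26.0 FPKM, while it rose in WT. For both, no young library overlapped the mature ones.

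**Figure D4:**
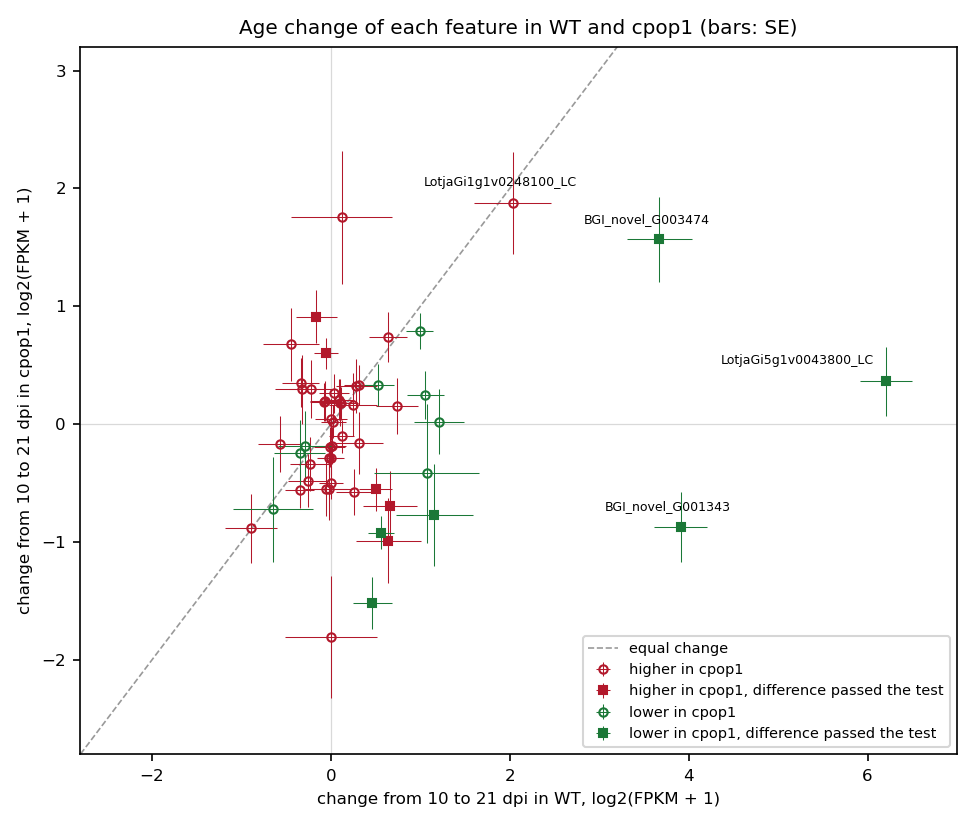
Change from 10 to 21 dpi of each of the 54 features in WT (horizontal) and cpop1 (vertical), on the log2(FPKM + 1) scale with SE bars; the dashed line marks equal change. Members lower in cpop1 (green) extend to the right, up to 6.21 for LotjaGi5g1v0043800_LC, and filled squares mark the 11 features whose changes differed between the genotypes.

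The genotype difference itself changed with age in 11 of the 54 members (20.4%; limma interaction, adjusted p under 0.05), 2 with a positive and 9 with a negative difference. Over all features 20% passed, 9.71% positive and 10.2% negative. Among the lower members 6 passed, all negative. In these cpop1 was further below WT at 21 than at 10 dpi on the log2(FPKM + 1) scale. The difference was -5.84 ± 0.41 for LotjaGi5g1v0043800_LC (limma adjusted p = 2.67e-05), -4.78 ± 0.42 for BGI_novel_G001343 (limma adjusted p = 7.5e-05) and -2.10 ± 0.51 for BGI_novel_G003474 (limma adjusted p = 0.0165). The last was not called with a pseudocount of 0.5 or 0.1 in place of 1. It shrank to -1.62 (limma adjusted p = 0.0731) with 0.5 and to -0.57 (limma adjusted p = 0.703) with 0.1. For BGI_novel_G001343 the difference grew to -5.37 and -7.17. Both features were at 3.08 FPKM or less in every cpop1 library, near the floor of this scale, and the size of their difference depended on the pseudocount.

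The other 3 lower members that passed were BGI_novel_G000747 at -1.98, BGI_novel_G002441 at -1.93 and LotjaGi1g1v0415500_LC at -1.48. Their limma adjusted p was 0.00192, 0.0493 and 0.00102, so the call of BGI_novel_G002441 was close to the limit. Among the higher members the excess of cpop1 over WT was smaller at 21 dpi in BGI_novel_G000212 (-1.63), LotjaGi1g1v0508400_LC (-1.36) and BGI_novel_G003317 (-1.05). The limma adjusted p of these 3 was 0.0478, 0.0461 and 0.0175, the first and second close to the limit. The excess was larger in BGI_novel_G002775 (1.07 ± 0.32, limma adjusted p = 0.039) and LotjaGi1g1v0619900_LC (0.65 ± 0.19, limma adjusted p = 0.0353). Both of these positive calls were lost without any 1 of the young cpop1 libraries, mature cpop1 replicate 1 or 2, young WT replicate 2 or mature WT replicate 1 or 3, with a pseudocount of 0.5 or 0.1 and with libraries aligned at 1 median. The call of BGI_novel_G002775 was also lost without mature cpop1 replicate 3 or young WT replicate 1. The same call was lost with no minimum level, with a minimum of 5 FPKM and with replicate number as a block. That of LotjaGi1g1v0619900_LC was also lost without mature WT replicate 2. For these 2 features and BGI_novel_G003317 every WT library was below 1 FPKM (at most 0.66, 0.15 and 0.88 FPKM), so they entered the test through cpop1 alone. With WT near the floor of the log2(FPKM + 1) scale, their difference mostly restates the change within cpop1 for BGI_novel_G002775 (0.91, against -0.16 in WT) and LotjaGi1g1v0619900_LC (0.60, against -0.05 in WT). For BGI_novel_G003317 the changes were -0.55 in cpop1 and 0.50 in WT.

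These splits depended on the scaling and on single libraries. Aligning the libraries at 1 median moved the median age change of all features from -0.23 to 0.13 in WT and from -0.20 to 0.08 in cpop1. Under it 19 members rose and 0 fell in WT, 11 rose and 2 fell in cpop1, and the interaction gave 0 positive and 11 negative members. Over all 22249 features, 5080 then rose and 2905 fell in WT, and 3385 rose and 2648 fell in cpop1. The interaction was positive in 2078 of them and negative in 2391. After rescaling without the 20 most abundant features, 7 members rose and 3 fell in cpop1, against 2359 and 3746 of all features. Without WT 10 dpi replicate 3, 13 members rose and 5 fell with age in WT, 8 rose and 13 fell in cpop1, and the interaction was positive in 3 and negative in 11. Of the 21960 features then tested, 3413 rose and 6462 fell in WT, and 3357 rose and 8079 fell in cpop1. The interaction was positive in 3744 of them and negative in 4806. Calls thus became more frequent over the whole table too. Without mature cpop1 replicate 3, 4 members rose and 2 fell in cpop1, against 1172 and 2976 of 22115 features.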

How the data were processed

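The authors deposited FPKM for 12 libraries, 1 column each with 2 decimals, per the file headers. RNA was sequenced on the DNBSEQ platform per the labels' protocols. HISAT and Bowtie2 2.2.5 are named without a role in the submitters' processing notes; build, annotation and FPKM program were not given in these sources. Columns named hemf2 were tied to cpop1 samples through the labels' descriptions. Because FPKM are relative to a library's total, a change in very abundant transcripts shifts all others.

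The 54 features, lists and tests were chosen with earlier results of these data known. Features with 1 FPKM in at least 3 libraries (22249) entered limma 3.58.1 in R 4.3.3: log2(FPKM + 1), 1 mean per group, all 12 libraries, eBayes with an intensity trend, Benjamini-Hochberg over all features, called under 0.05. Fold changes on this scale understate those of low features. The fit was tested on simulated data. Members with the widest gaps, on-off members and runs were each named, with values per library or as a range. Per age comparison and direction, up to 3 of the largest called changes were given with their p. Alternatives were pseudocounts of 0.5 and 0.1, no minimum or 5 FPKM, other gaps, 2 scalings, a replicate block, the compared groups alone, no trend, and each library left out. Python 3.11.15, pandas 2.3.3, NumPy 2.4.6 and matplotlib 3.10.9 gave descriptive values and plots.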

Additional observations from a re-analysis of the deposited data

Results flagged for a closer look

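The genotype difference changed with age, by a test of the difference itself, in 11 of the 54 features (limma interaction, adjusted p under 0.05), against 20% of all features tested. On the log2(FPKM + 1) scale, as the effect at 21 dpi minus that at 10 dpi, the difference was -5.84 for LotjaGi5g1v0043800_LC, -4.78 for BGI_novel_G001343, -2.10 for BGI_novel_G003474, -1.98 for BGI_novel_G000747, -1.93 for BGI_novel_G002441 and -1.48 for LotjaGi1g1v0415500_LC, all lower in cpop1 at both ages. Of the features higher in cpop1 it was -1.63 for BGI_novel_G000212, -1.36 for LotjaGi1g1v0508400_LC, -1.05 for BGI_novel_G003317, 0.65 for LotjaGi1g1v0619900_LC and 1.07 for BGI_novel_G002775. In the last 3 every WT library was below 1 FPKM, near the floor of this scale, so they entered the test through cpop1 alone. For BGI_novel_G002441, mature WT replicate 3 at 34.6 FPKM lay far above the other mature WT libraries. BGI_novel_G003474 was not called with a pseudocount of 0.5 or 0.1 in place of 1.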

How the results depend on the processing

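The 40 higher and 14 lower features became 71 and 33 with a pseudocount of 0.1, 82 and 47 with a gap of 0.5, and 16 and 1 with a gap of 2. Leaving out single libraries gave 40 to 133 higher and 14 to 250 lower features, both highest without WT 10 dpi replicate 3. The on-off ones were then 6 to 9 with cpop1 high and 0 to 19 with WT high; 9 were also reached without WT 10 dpi replicate 2 or WT 21 dpi replicate 1, and 19 came without WT 10 dpi replicate 3. With a common median, 45 of the 54 were kept. For the age change in WT (11 rose, 1 fell), 19 rose and 0 fell with a common median, 7 and 0 with WT libraries alone, and 3 fell with a pseudocount of 0.1; single libraries left out gave 8 to 13 rising and 0 to 5 falling. For cpop1 (7 rose, 9 fell), 4 rose with a pseudocount of 0.1, 11 rose and 2 fell with a common median, 5 fell with no filter and 3 after rescaling without the 20 most abundant features; single libraries left out gave 4 to 8 and 2 to 13. The 2 positive interactions became 0 with a pseudocount of 0.5 or 0.1, a filter at 5 FPKM or a common median, and 1 with no filter or with the replicate block; single libraries left out gave 0 to 3 positive and 6 to 11 negative. The counts over all features changed with these settings too. The cause was not tested. The replicate numbers were not used as pairs in the main fit. Same-numbered deviations correlated between -0.076 and 0.27, with at least 1 number per pair of groups under 0.1. Differently numbered libraries were not compared, so these values cannot tell whether the libraries were paired. With the block, 9 members rose and 1 fell in WT, 7 and 8 in cpop1. Of 309 repeats of the named age results, 258 kept their call, 51 lost it and 0 changed sign. For an age change within a genotype, leaving out libraries of the other genotype left the estimate unchanged. So did other minimum levels, the block, no trend and the compared groups alone, so these repeats could not change the sign. The depth is unknown, so values near 0 FPKM set no limit on absence.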
